A study of Mus musculus with 24 samples.

Results

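The collagen genes are described here in differentiating mouse muscle cells. They were taken as the genes of the deposited table whose name is Col, a number, a and a number, which gave 43 of the 28109 genes in the table. The mRNA was sequenced from C2C12 cells, an established mouse myoblast line that the labels assign to the C3H strain, and from primary myoblasts (PMs) isolated from C57/B6 mice and plated on matrigel. Both were transfected with a control siRNA (siControl, labelled as directed against luciferase) or with a pool of siRNAs that targets both Tead1 and Tead4 (siTead1/4), and were then moved to a low-serum medium in which myoblasts stop dividing and fuse into myotubes. RNA was collected before the change of medium (day 0) and at days 3 and 6, with 2 biological replicates in each of the 12 groups, giving 24 libraries. All cells of a culture were lysed together, so a lower level in bulk RNA can reflect fewer cells of a type or less RNA per cell, which cannot be told apart. Cell type, mouse strain and culture conditions change together between C2C12 cells and PMs and cannot be told apart either.

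Collagens are proteins, most of them secreted, in which alpha chains wind into a triple helix. The chains are identical or are the products of different genes, and collagens are grouped by the structures they build. Fibrillar collagens form the tensile fibres of the matrix, type IV collagen forms the sheet of the basement membrane that wraps each muscle fibre, and type VI collagen forms beaded microfilaments that connect fibrils with the basement membrane and that are mutated in congenital muscular dystrophies. FACIT collagens decorate fibrils, network collagens form lattices, multiplexins lie in the basement membrane zone, and transmembrane collagens sit in the cell surface. In muscle, collagen is laid down largely by fibroblasts, but myoblasts and myotubes also make several types.

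The 43 genes comprised 11 fibrillar, 6 basement membrane, 6 beaded filament, 9 FACIT, 3 network, 2 multiplexin and 4 transmembrane collagens, and 2 others (Col7a1, the anchoring fibril collagen, and Col28a1). A filter on low counts left 36 of them for testing in C2C12 cells and 39 in PMs. Col4a3, Col4a4, Col6a4 and Col9a2 passed in neither cell type, and Col6a5, Col6a6 and Col9a1 passed in PMs alone. Of the 43 genes, 29 had more than 3 counts in all 24 libraries. The table's coordinates (mm9) make Col4a1 and Col4a2 overlap by 22 bases at their starts on chromosome 8, where the unstranded reads of one cannot be told from those of the other.

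Library totals ran from 25453830 to 52784510 counts on genes, and replicates correlated at 0.981 to 0.993 across genes on the log CPM scale. Of the targeted genes, Tead4 was lower in every siTead1/4 library than in either control of its cell type and day, and had a log2 fold change of -2.36, -2.58 and -1.75 at days 0, 3 and 6 in PMs (edgeR adjusted p 0.00026, 9.3e-05 and 0.002). The corresponding values in C2C12 cells were -2.21, -1.76 and -1.28 (adjusted p 0.036, 0.043 and 0.32). For Tead1 the values were -1.44, -1.68 and -1.1 in PMs (adjusted p 0.021, 0.011 and 0.14) and -2.46, -1.09 and -0.52 in C2C12 cells (adjusted p 0.17, 0.5 and 0.95), where the day 6 groups overlapped. The labelled cell type was checked with myogenic markers, and Myod1, Myog and Des were read in all libraries. Myog was at 9.68 and 2.91 CPM in C2C12 siControl cells at day 0 and 1150 and 1120 CPM at day 3. In siControl PMs Myog already averaged 999 CPM at day 0 and 1010 CPM at day 6. Its log2 change to day 6 differed by -7.09, PM minus C2C12 (edgeR adjusted p 3e-06). By day 6 of PMs, Myod1 fell from 1010 to 347 CPM on average and Des rose from 1510 to 6620 CPM. The 10 fibroblast markers summed to between 32.7 and 472 CPM in siControl cells. In siControl C2C12 cells at day 0, Dpt was at 0 in both libraries and Lum averaged 0 CPM. Pdgfra averaged 10.2 CPM, Twist2 29.8 CPM and Ly6a 70.6 CPM there. Over all 24 libraries, 6 endothelial markers summed to 0.219 to 16.7 CPM, 6 Schwann cell markers to 4.83 to 399 CPM, most of it Erbb3, 6 macrophage markers to 1.07 to 9.33 CPM, 6 chondrocyte markers to 21.4 to 78.8 CPM and 4 tenocyte markers to 98.2 to 589 CPM. Of the defining markers, Ptprc (blood cells), Acan (cartilage) and Tnmd (tendon) did not exceed 0.0593, 0.636 and 0.196 CPM in any library. Scx, the other defining tendon marker, was well read in siControl cells. It averaged 47.1 CPM at day 0 and 146 CPM at day 6 of PMs, and 56.6 and 201 CPM in C2C12 cells. P-values measure the spread between these cultures, part of which may be technical.

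The stretches of 250 bases before the annotated start of 4 collagen genes are shown, because the results turn on these genes and because Tead factors bind the MCAT element. They are RefSeq promoter sequences of the GRCm38.p6 build, a later build than that of the table, written 5′ to 3′ on the strand of the gene. Capitals mark the MCAT heptamer (CATTCCA or CATTCCT) and the CCAAT box on either strand. Col24a1 chr3:145292222-145292471 (+ strand) encodes a minor fibrillar collagen and is shown for its response to siTead1/4, Col3a1 chr1:45311288-45311537 (+ strand) as the fibrillar collagen with the heptamer, Col1a2 chr6:4505368-4505617 (+ strand) as a gene called with differentiation in PMs, and Col6a1 chr10:76726045-76726294 (- strand) as one called in C2C12 cells.
Col24a1: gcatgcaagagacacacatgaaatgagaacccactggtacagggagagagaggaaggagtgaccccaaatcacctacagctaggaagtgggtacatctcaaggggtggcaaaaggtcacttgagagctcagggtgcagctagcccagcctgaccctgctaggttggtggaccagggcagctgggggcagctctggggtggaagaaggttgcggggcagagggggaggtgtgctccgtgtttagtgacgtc
Col3a1: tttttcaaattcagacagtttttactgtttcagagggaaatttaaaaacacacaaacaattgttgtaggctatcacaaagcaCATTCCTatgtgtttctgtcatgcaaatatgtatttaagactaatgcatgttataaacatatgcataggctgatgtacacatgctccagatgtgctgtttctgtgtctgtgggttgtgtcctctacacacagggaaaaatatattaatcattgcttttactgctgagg
Col1a2: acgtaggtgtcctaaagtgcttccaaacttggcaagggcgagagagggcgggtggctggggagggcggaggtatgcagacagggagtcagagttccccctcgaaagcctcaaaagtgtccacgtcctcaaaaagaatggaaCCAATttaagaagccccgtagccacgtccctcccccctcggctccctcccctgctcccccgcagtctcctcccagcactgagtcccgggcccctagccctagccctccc
Col6a1: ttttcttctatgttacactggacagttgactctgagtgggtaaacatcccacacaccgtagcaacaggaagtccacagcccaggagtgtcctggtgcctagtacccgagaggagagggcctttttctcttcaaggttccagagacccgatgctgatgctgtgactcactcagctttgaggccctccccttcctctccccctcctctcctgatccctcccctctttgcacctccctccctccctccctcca

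Among the 35 collagen genes with such a window (38 windows in all), the MCAT heptamer was found in 2 windows, 1 of Col3a1 and 1 of Col18a1, which is 5.26% beside 7.97% of the 32851 windows of all genes. The Col3a1 heptamer began 168 bases before the start on the strand of the gene. The CCAAT box was found in 13 windows (34.2% beside 33.8% of all), and the GC box GGGCGG, searched on both strands as were the other motifs, in 22 windows (57.9% beside 32.7%). The Col24a1 window held neither the heptamer nor the CCAAT box. These matches describe letters and not bound sites. Col12a1, Col14a1, Col1a1, Col22a1, Col2a1, Col4a3, Col5a2 and Col9a3 had no window in the table used.

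The most abundant collagen mRNAs per kilobase of gene, averaged over the 24 libraries, were those of Col3a1 (240 CPM per kilobase), Col1a2 (201), Col5a2 (140), Col1a1 (104), Col4a1 (87.3), Col5a1 (81.3), Col4a2 (58.5), Col18a1 (48.1), Col6a1 (34.1) and Col5a3 (24.6). The deposited length differs from the union of GENCODE vM1 exons for some genes, and with that union as length, a choice made after seeing the data, the first 4 came closer to the next, at 159 for Col3a1, 99.6 for Col1a2, 96.6 for Col1a1 and 96.5 for Col5a2 beside an unmoved 87.3 for Col4a1. The highest member of siControl PMs at day 0 was then Col4a1 in place of Col3a1 in both libraries. The least abundant members stayed at or below 0.0408 CPM per kilobase on average (Col4a6, Col9a1, Col4a3, Col9a2, Col6a5, Col4a4 and Col6a4). In PM siControl cells the 43 genes together took 0.347% and 0.356% of the counts on genes at day 0, then 0.518% and 0.602% at day 3, then 1.09% and 0.855% at day 6, so that the replicates of the 3 days did not overlap. In C2C12 siControl cells the same share was 0.516% and 0.658% at day 0, then 0.707% and 0.883% at day 3, then 0.605% and 0.766% at day 6, where day 6 overlapped with both other days.

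**Figure D1:**
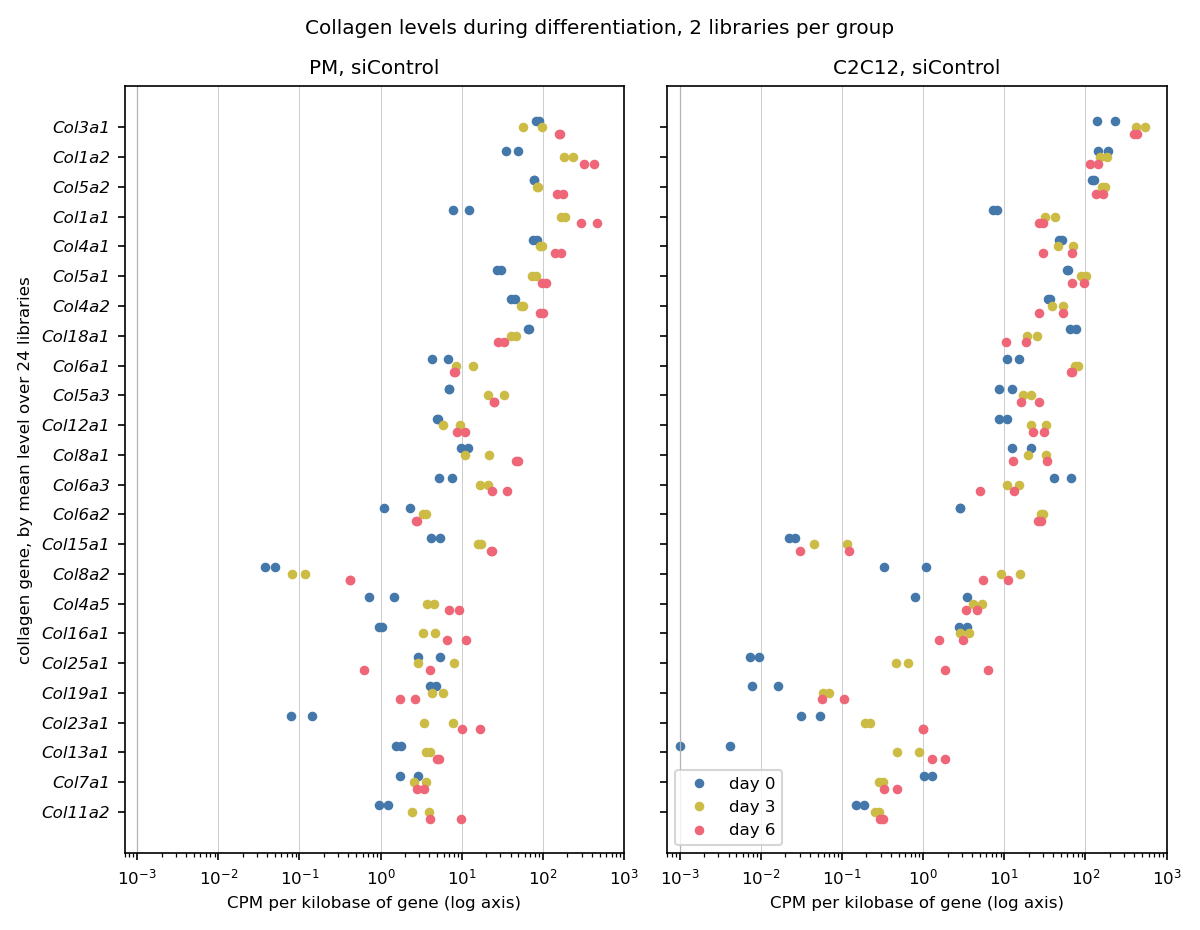
Levels of the 24 most abundant collagen genes in siControl cells, as CPM per kilobase of gene on a log axis, with 1 point per library (2 libraries per day) and genes ordered by their mean over all 24 libraries; a library with no read is drawn on the grey line at the left edge. In PMs Col1a1 moved from 12.3 and 7.79 at day 0 to 468 and 296 at day 6, while in C2C12 siControl cells Col15a1 and Col19a1 stayed at or below 0.121.

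Differentiation of PMs was accompanied by higher levels of many collagen mRNAs. Between day 0 and day 6 of siControl PMs, 19 collagen genes rose and 3 fell among the 39 tested (56.4%), beside 35.5% of all 16144 genes tested (20.2% higher and 15.3% lower). A gene was called when edgeR's adjusted p was under 0.05 and the log2 fold change beyond 1 either way. The median log2 fold change of the collagen genes was 1.23, against 0.03 for all genes. By day 3, 16 had risen and 1 had fallen (43.6%, beside 32.3% of all genes), with a median of 0.95 against 0.01. At day 6 those that rose were 6 of 11 fibrillar, 2 of 4 basement membrane, 2 of 5 beaded filament, 3 of 8 FACIT, 3 of 3 network, 1 of 2 multiplexin and 2 of 4 transmembrane genes tested. Over the same interval 5 of the 9 tested fibroblast markers rose (Thy1, Dpt, Dcn, Lum and Twist2). So did 2 of the 3 tested tenocyte markers (Scx by 1.56 and Egr1 by 2.57 on the log2 scale). Of the 5 tested Schwann cell markers 2 rose (Erbb3 by 1.04 and S100b by 3.2), and Sox10 was not called (1.69, edgeR adjusted p 0.4). Of the 3 tested chondrocyte markers 1 rose (Comp by 5.22, to 2.93 CPM on average). Of the 4 tested macrophage markers 1 rose (Lyz2 by 3.27, to 0.633 CPM). In siControl C2C12 cells Erbb3 (5.48), S100b (2.46) and Scx (1.79) also rose by day 6, while Egr1 (-0.17) was not called. At day 3 of PMs, Scx (1.3), Egr1 (1.69), Erbb3 (1.46) and Comp (2.84) had risen, while 1 fibroblast marker had risen and 1 had fallen. The macrophage markers Cd68 (-1.49) and Cd14 (-1.45) had fallen. The part of these markers in the collagen changes was not tested.

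The chains of type I collagen, the main fibrillar collagen of tendon, skin and bone, had the highest levels per kilobase of all collagens in siControl PMs at day 6, with either gene length. Col1a1 (chromosome 11, 94797538 to 94814356, mm9) was at 74.7 and 47.3 CPM at day 0, 1120 and 1020 CPM at day 3, and 2840 and 1800 CPM at day 6. Its partner chain Col1a2 was at 300 and 213 CPM, then 1090 and 1410 CPM, then 2570 and 1930 CPM. For both genes the 3 days were fully separated. The log2 fold change from day 0 to day 6 was 5.18 ± 0.4 (SE) for Col1a1 (adjusted p 1.7e-06) and 3.07 ± 0.32 for Col1a2 (adjusted p 1.5e-05).

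The chains of type V collagen, which joins type I fibrils and limits their diameter, moved less. Col5a1 was at 257 and 233 CPM at day 0 and 933 and 816 CPM at day 6 (log2 fold change 1.77 ± 0.18, adjusted p 1.1e-05), and Col5a3 at 42.1 and 42.9 CPM and then 153 and 151 CPM (1.77 ± 0.2, adjusted p 2.4e-05). Both were called by day 3 and neither was called between days 3 and 6. Col5a2 was nearly level until day 3 (516 and 512 CPM, then 564 and 580 CPM) and reached 1180 and 973 CPM at day 6, where its log2 fold change of 1 ± 0.14 (adjusted p 0.00015) stayed just short of the fold threshold. Col3a1, the single chain of type III collagen, was at 454 and 497 CPM at day 0, 314 and 548 CPM at day 3 and 872 and 902 CPM at day 6. It was called between days 3 and 6 (1.03 ± 0.26, adjusted p 0.043) but not between days 0 and 6 (0.83 ± 0.26, adjusted p 0.016), and the call was lost without replicate 1 of day 3 (adjusted p 0.22) and without either library of day 6.

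Chains best known from cartilage fibrils also rose from low levels. Col11a1 was at 1.04 and 0.451 CPM at day 0, 11.7 and 4.55 CPM at day 3 and 86.5 and 31.3 CPM at day 6, a log2 fold change of 6.18 ± 0.77 (adjusted p 5.3e-05). Its replicates differed by more than 2-fold at each day, but the days did not overlap. Col11a2 was at 8.31 and 6.31 CPM and then 27.1 and 65.2 CPM (2.59 ± 0.46, adjusted p 0.00064). Col2a1, the main collagen of cartilage, did not pass the test and stayed between 0.197 and 1.01 CPM. Of the remaining fibrillar genes, Col24a1 did not pass the test (2.54 and 2.65 CPM at day 0, 3.85 and 2.61 CPM at day 6), and Col27a1 fell by 1.81 on the log2 scale at day 3 (± 0.61, adjusted p 0.025). The day 3 call of Col27a1 was lost without replicate 2 of day 3 (adjusted p 0.15) and without either library of day 0, and that of Col11a2 at day 3 without replicate 2 of day 3 (adjusted p 0.11) or of day 0.

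The basement membrane chains Col4a1 and Col4a2, which are transcribed in opposite directions from neighbouring starts, moved together. In PMs Col4a1 was at 511 and 582 CPM at day 0, 624 and 660 CPM at day 3 and 1150 and 963 CPM at day 6. Col4a2 was at 266 and 297 CPM, then 374 and 353 CPM, then 659 and 611 CPM. Day 6 lay above the other days for both, with a log2 fold change of 1.11 ± 0.11 for Col4a2 (adjusted p 1.1e-05) and 0.89 ± 0.13 for Col4a1 (adjusted p 0.00014), which was short of the fold threshold. Col4a5, a chain of a more restricted type IV network, was at 9.94 and 4.87 CPM at day 0 and 62.4 and 46.6 CPM at day 6 (2.8 ± 0.36, adjusted p 6.1e-05). Col4a6 was tested without a call and did not exceed 0.518 CPM in siControl PMs, and Col4a3 and Col4a4 stayed at or below 0.253 CPM.

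Of the type VI chains in PMs, Col6a3 was the one of the classical trimer that rose. It was at 89.7 and 63.3 CPM at day 0, 250 and 203 CPM at day 3 and 429 and 283 CPM at day 6 (log2 fold change 2.15 ± 0.28, adjusted p 7.7e-05). Its partners differed less from day 0, Col6a1 by 0.5 ± 0.3 (adjusted p 0.18) and Col6a2 by 0.64 ± 0.29 (adjusted p 0.08) at day 6. Col6a6, a chain that can take the place of the alpha 3 chain, had 2 and 1 counts at day 0, 74 and 379 counts at day 3 and 55 and 133 counts at day 6. Measured against a floor of 3 counts per library, its day 3 level was at least 78.7-fold higher (adjusted p 0.00085) than that of day 0. This bound rests largely on replicate 2 of day 3, since replicate 1 alone gives 28.1-fold and replicate 2 alone 129-fold. For day 6 the same bound was 41.3-fold (adjusted p 0.0026), with 24-fold and 58.6-fold for the single replicates. Col6a5 was tested without a call in these comparisons.

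Among the FACIT collagens of PMs, Col16a1 and Col20a1 rose most. Col16a1 was at 6.76 and 6.2 CPM at day 0 and 72.2 and 42.3 CPM at day 6 (log2 fold change 3.07 ± 0.29, adjusted p 6.5e-06). Col20a1 was at 0.509 and 0.451 CPM and then 3.17 and 2.93 CPM (2.59 ± 0.3, adjusted p 2.8e-05). Col12a1, which binds type I fibrils in tendon and muscle, was at 62.1 and 60.3 CPM at day 0 and 106 and 134 CPM at day 6 (0.9 ± 0.19, adjusted p 0.0022), short of the fold threshold. Col14a1 rose from 1.36 and 1.41 CPM to 4.14 and 2.64 CPM (1.23 ± 0.42, adjusted p 0.026), a call that was lost without replicate 1 of day 6 (adjusted p 0.16) or either library of day 0, and at day 3 without replicate 2 of day 3 (adjusted p 0.052). Col19a1, a collagen described in differentiating muscle, fell from 33.1 and 28.1 CPM to 18.3 and 12 CPM (-1.08 ± 0.39, adjusted p 0.031). This call was lost without replicate 2 of day 6 (adjusted p 0.17) or either library of day 0. Col9a1, Col9a3 and Col22a1 were tested without a call.

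All 3 network collagens rose in PMs. Col8a1 was at 49.9 and 60.9 CPM at day 0, 56.1 and 112 CPM at day 3 and 238 and 250 CPM at day 6 (log2 fold change 2.07 ± 0.27, adjusted p 8.1e-05). Col8a2, its partner in the hexagonal lattice of vessel walls and cornea, was at 0.17 and 0.225 CPM at day 0 and 1.88 and 1.89 CPM at day 6 (3.19 ± 0.47, adjusted p 0.00017). Col10a1, the collagen of hypertrophic cartilage, was at 0.784 and 0.648 CPM and then 6.37 and 4.47 CPM (2.84 ± 0.35, adjusted p 4.6e-05). The multiplexins moved in opposite directions. Col15a1, whose loss causes a myopathy in mice, was at 34.2 and 26.4 CPM at day 0 and 145 and 151 CPM at day 6 (2.22 ± 0.21, adjusted p 7e-06). Col18a1, the precursor of endostatin, was at 471 and 464 CPM at day 0, 284 and 325 CPM at day 3 and 232 and 196 CPM at day 6 (-1.19 ± 0.18, adjusted p 0.00018).

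The transmembrane collagen Col23a1 had the largest fitted change of the well-counted members in PMs. It was at 0.445 and 0.817 CPM at day 0, 19.5 and 44.7 CPM at day 3 and 58.2 and 95.6 CPM at day 6, a log2 fold change of 6.9 ± 0.5 (adjusted p 1.2e-06). Col13a1, a collagen of the neuromuscular junction, was at 7.52 and 6.51 CPM and then 20.8 and 22.2 CPM (1.55 ± 0.13, adjusted p 4e-06). Col17a1, a component of hemidesmosomes, fell from 0.424 and 0.282 CPM to 0.194 and 0.13 CPM (-1.19 ± 0.46, adjusted p 0.044), a call lost without replicate 1 of day 0 (adjusted p 0.26) or either library of day 6. Col25a1, which motor axons need to innervate muscle, ranged from 4.75 to 59.7 CPM with overlap between days (-0.87 ± 0.67, adjusted p 0.28). Col7a1 and Col28a1 were not called, and Col28a1 differed between replicates at each day, with 1.29 and 0.169, 2.97 and 0.177, and 4.59 and 0.424 CPM.

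From day 3 to day 6 of PMs, 5 collagen genes rose and none fell (12.8%, beside 2.8% of all genes). Besides Col3a1 they were Col11a1 (log2 fold change 2.85 ± 0.62, adjusted p 0.027), Col8a2 (2.05 ± 0.42, adjusted p 0.023), Col8a1 (1.53 ± 0.27, adjusted p 0.012) and Col16a1 (1.13 ± 0.26, adjusted p 0.035). Of the 5, 1 was kept without replicate 1 of day 3 or of day 6, 2 without replicate 2 of day 3 and 3 without replicate 2 of day 6. Of the 5 calls, only that of Col8a1 held in each of the 4 fits that left out a library of the comparison. Col11a1 and Col16a1 were lost without replicate 1 of day 6 (adjusted p 0.13 and 0.17) or either library of day 3, and Col8a2 was lost without any 1 of the 4 libraries (adjusted p up to 0.14, without replicate 1 of day 3). Over the same interval, 6 of the 9 tested fibroblast markers rose, Pdgfra, Thy1, Dpt, Dcn, Lum and Pdgfrl. The sum of the 10 markers went from 44.6 and 33.1 CPM at day 3 to 178 and 117 CPM at day 6. The chondrocyte marker Comp (2.38) and, from few reads, the macrophage marker Lyz2 (2.92) also rose on the log2 scale. Endothelial markers summed to 11 CPM or more in replicate 1 and to 4.76 CPM or less in replicate 2 of each siControl day.

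Collagen genes also changed with the differentiation of C2C12 cells. Between day 0 and day 6 of siControl cells, 13 collagen genes rose and 4 fell among 36 tested (47.2%), beside 31.1% of all 15303 genes tested (17.1% higher and 14% lower). The median log2 fold change was 1.15, against -0.01 for all genes. By day 3, 14 had risen and 3 had fallen (47.2%, beside 28.7% of all genes), with a median of 0.97 against -0.01. Of the 17 calls of day 3, 9 were kept without replicate 1 of day 0, 8 without replicate 2 of day 0 and 10 without replicate 2 of day 3. At day 6 those that rose were 3 of 11 fibrillar, 2 of 3 beaded filament, 2 of 7 FACIT, 2 of 3 network and 3 of 4 transmembrane genes and Col28a1, and none of the 4 tested basement membrane genes was called. Between days 3 and 6 edgeR called no collagen gene, beside 0% of all genes, with 5 at an unadjusted p under 0.05. DESeq2 also called 0 there. No share of all genes at an unadjusted p is given here or below.

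Col1a1 rose in C2C12 cells as well, from 49.8 and 43.8 CPM at day 0 to 191 and 255 CPM at day 3 and 163 and 184 CPM at day 6, with log2 fold changes of 2.21 ± 0.57 and 1.85 ± 0.57 (adjusted p 0.012 and 0.023). Although the levels did not overlap with day 0, the day 6 call was lost without any 1 of the 4 libraries (adjusted p up to 0.11, without replicate 2 of day 0). The day 3 call was lost without replicate 2 of day 3 or either library of day 0 (adjusted p up to 0.074). Col1a2 was already at 849 and 1140 CPM at day 0 and at 679 and 847 CPM at day 6 (-0.42 ± 0.31, adjusted p 0.29). Col3a1 was the most abundant collagen per kilobase in these siControl cells at days 3 and 6, going from 778 and 1290 CPM to 2330 and 3010 CPM at day 3 and 2180 and 2400 CPM at day 6. It was called at day 3 (1.33 ± 0.42, adjusted p 0.03) and not at day 6 (1.11 ± 0.42, adjusted p 0.055), and the day 3 call was lost without replicate 1 of day 0 (adjusted p 0.19) or either library of day 3.

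The other abundant fibrillar and basement membrane chains of C2C12 cells did not pass the test at day 6. Col5a1 differed from day 0 by 0.4 ± 0.3 (adjusted p 0.31), Col5a2 by 0.22 ± 0.28 (adjusted p 0.55), Col4a1 by -0.04 ± 0.43 (adjusted p 0.95) and Col4a2 by 0.15 ± 0.41 (adjusted p 0.8) on the log2 scale. Col4a1 was at 319 and 348 CPM at day 0 and at 205 and 462 CPM at day 6, where its replicates spanned the earlier level. Col11a1 rose from 0.0281 and 0.142 CPM to 0.732 and 2 CPM (3.76 ± 0.83, adjusted p 0.0048), and was called at day 3 except without replicate 2 of day 3 (adjusted p 0.083) or replicate 1 of day 0. Col24a1 rose from 0.141 and 0.32 CPM to 1.16 and 1.48 CPM at day 3 (2.41 ± 0.44, adjusted p 0.0019) and 0.597 and 1 CPM at day 6 (1.67 ± 0.45, adjusted p 0.013). Its day 6 call was lost without replicate 1 of day 0 (adjusted p 0.088) or replicate 2 of day 6.

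The type VI chains Col6a1 and Col6a2 rose and Col6a3 fell in C2C12 cells. Col6a1 was at 43.8 and 62.9 CPM at day 0, 309 and 331 CPM at day 3 and 275 and 278 CPM at day 6. Col6a2 was at 17.1 and 17.2 CPM, then 180 and 172 CPM, then 170 and 156 CPM. Col6a3 went the other way, from 487 and 783 CPM to 129 and 179 CPM and 59.1 and 159 CPM. Replicates of day 0 were separated from those of days 3 and 6 for all 3 chains. The log2 fold changes at day 6 were 2.33 ± 0.74 for Col6a1 (adjusted p 0.028), 3.21 ± 0.84 for Col6a2 (adjusted p 0.011) and -2.58 ± 0.64 for Col6a3 (adjusted p 0.0087). The Col6a1 calls at both days were lost without any 1 of the 4 libraries (adjusted p up to 0.12 at day 3 and 0.14 at day 6, each without replicate 1 of day 0). The Col6a2 calls were lost without either library of day 0 (adjusted p up to 0.069 at both days). The Col6a3 call was lost at day 6 without replicate 1 of day 6 (adjusted p 0.069), and at day 3 without either library of day 3 or replicate 2 of day 0 (adjusted p up to 0.14).

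Several collagens that were nearly unread in C2C12 cells at day 0 appeared with differentiation. Col25a1 had 2 and 4 counts at day 0, then 150 and 242 at day 3, then 735 and 1424 at day 6, or 14.2 and 47.6 CPM, a fitted log2 fold change of 8.78 ± 1.46 that rests on these few day 0 reads (adjusted p 0.00097). Its day 3 call was lost without either library of day 0 (adjusted p up to 0.061). Col13a1 had 0 and 1 counts at day 0 and reached 2.03 and 3.81 CPM at day 3 and 5.45 and 7.82 CPM at day 6, at least 42.4-fold and at least 96.4-fold above the floor of 3 counts (adjusted p 0.00017 and 6.4e-05). Col19a1 rose from 0.113 and 0.0533 CPM to 0.385 and 0.735 CPM (2.72 ± 0.5, adjusted p 0.0018), and Col22a1, a collagen of the muscle and tendon junction, from 0.366 and 0.284 CPM to 2.14 and 1.84 CPM (2.58 ± 0.5, adjusted p 0.0023). The day 3 call of Col19a1 was lost without replicate 2 of day 0 (adjusted p 0.054). Col23a1 rose to 5.7 and 5.78 CPM from 0.31 and 0.178 CPM (4.55 ± 1.09, adjusted p 0.0073), a call lost without replicate 2 of day 0 (adjusted p 0.063). Col10a1 rose to 10.4 and 4.18 CPM from 0.253 and 0.16 CPM (5.13 ± 0.96, adjusted p 0.0019), and its day 3 call was lost without replicate 2 of day 0 (adjusted p 0.071).

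Col8a2 rose in C2C12 cells from 4.9 and 1.46 CPM to 41.1 and 69.1 CPM at day 3 and 24.7 and 49.3 CPM at day 6 (log2 fold change 3.52 ± 0.84 at day 6, adjusted p 0.0073), a call lost at day 6 without replicate 2 of day 0 (adjusted p 0.057). Col28a1 rose to 0.578 and 2.94 CPM (3.51 ± 0.9, adjusted p 0.01), and was lost at day 6 without replicate 2 of day 6 (adjusted p 0.095) or of day 0 and at day 3 without any 1 of the 4 libraries (adjusted p up to 0.19, without replicate 2 of day 0). Col14a1 (2.75 ± 0.61, adjusted p 0.0054) and Col20a1 (1.5 ± 0.51, adjusted p 0.04) were called higher at day 3 and not at day 6, and the Col20a1 call was lost without any 1 of the 4 libraries (adjusted p up to 0.2, without replicate 1 of day 0). Col18a1 fell from 459 and 539 CPM to 133 and 180 CPM and 73.5 and 129 CPM (-2.34 ± 0.37 at day 6, adjusted p 0.00072). Col7a1 fell from 9.51 and 11.8 CPM to 4.41 and 3.01 CPM (-1.55 ± 0.26, adjusted p 0.00098). Col17a1 fell from 4.39 and 4.18 CPM to 1.5 and 0.334 CPM (-2.2 ± 0.62, adjusted p 0.016), a call lost without replicate 2 of day 6 (adjusted p 0.074) or either library of day 0. The remaining tested members of C2C12 cells, among them Col5a3, Col8a1, Col12a1, Col15a1 and Col16a1, were called at neither day. Fibroblast markers summed to 111 and 127 CPM at day 0, 472 and 237 CPM at day 3 and 459 and 130 CPM at day 6, so that their replicates diverged. Of the 8 tested, 4 rose and 1 fell by day 6, and their part in the collagen changes was not tested.

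**Figure D2:**
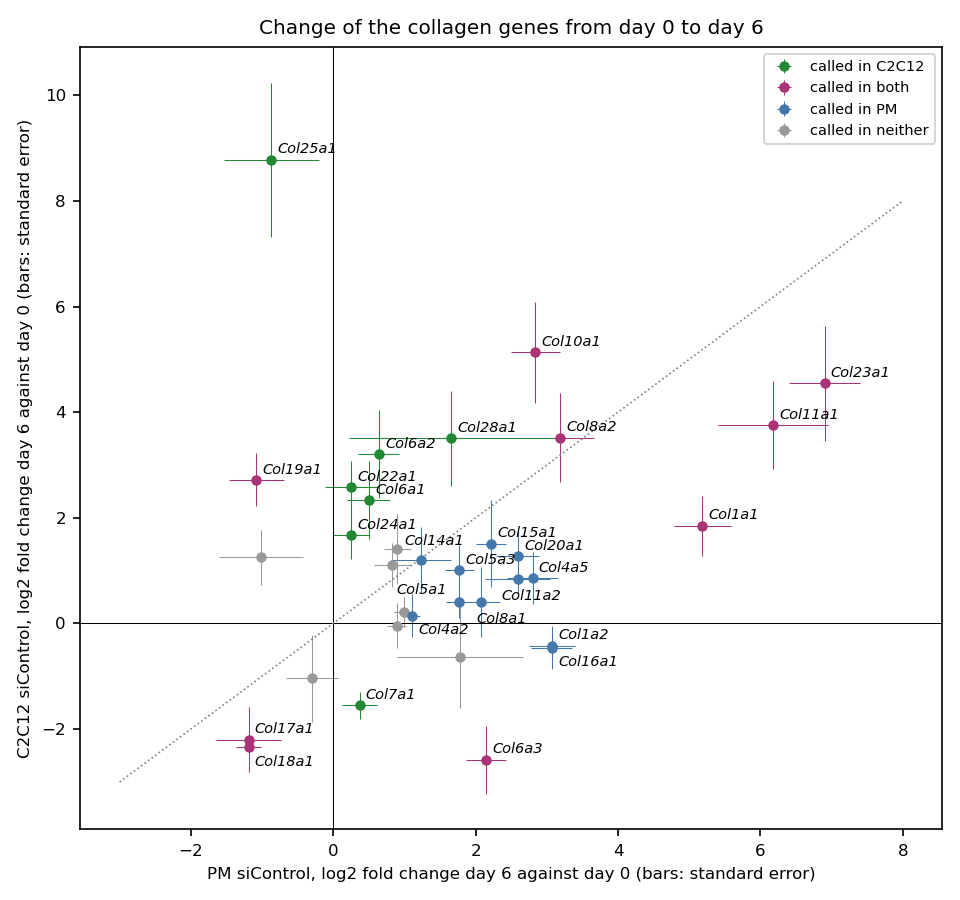
Log2 fold change from day 0 to day 6 of siControl cells in PMs (x axis) and C2C12 cells (y axis) for the 34 collagen genes tested in both and not at the count floor; bars are standard errors, colours give where a gene was called, and the dotted line marks equal change. Col1a1 lies at 5.18 and 1.85, Col6a3 at 2.15 and -2.58, and Col25a1 at -0.87 and 8.78.

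The difference between the cell types in the change with time was tested as an interaction over all 24 libraries. Day 0 levels of Myog differed between the cell types, as given above, and their part in these differences was not tested. From day 0 to day 3, 7 of 39 collagen genes differed (17.9%, beside 11.2% of all 16926 genes tested), and from day 0 to day 6, 10 differed (25.6%, beside 12.7%). A positive value means a larger rise or smaller fall in PMs. By day 6 these were Col6a3 (4.76 ± 0.76, adjusted p 0.00032), Col16a1 (3.56 ± 0.54, adjusted p 0.00019), Col1a2 (3.51 ± 0.47, adjusted p 5.1e-05), Col1a1 (3.36 ± 0.72, adjusted p 0.0039), Col7a1 (1.95 ± 0.36, adjusted p 0.0012) and Col5a1 (1.39 ± 0.36, adjusted p 0.014). Negative values were found for Col25a1 (-9.62 ± 1.73, adjusted p 0.00094), Col19a1 (-3.76 ± 0.76, adjusted p 0.0024) and Col22a1 (-2.31 ± 0.6, adjusted p 0.015), and Col13a1 differed in the same direction from a C2C12 level at the floor (adjusted p 1.5e-05). The call of Col5a1 was lost without replicate 1 of C2C12 day 6 (adjusted p 0.07), replicate 1 of PM day 6 or replicate 2 of PM day 0. That of Col22a1 was lost without replicate 2 of C2C12 day 0 (adjusted p 0.075) or replicate 2 of PM day 0 or day 6. Col6a1 and Col6a2, which were called in C2C12 cells, did not pass this test (-1.81 ± 0.85, adjusted p 0.19, and -2.54 ± 0.93, adjusted p 0.081), nor did Col4a1 and Col4a2 (0.95 ± 0.48, adjusted p 0.23, and 0.99 ± 0.45, adjusted p 0.17).

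By day 3 the difference between the cell types was called for Col6a3 (3.61 ± 0.75, adjusted p 0.0033), Col7a1 (2.34 ± 0.36, adjusted p 0.00028), Col1a2 (2.25 ± 0.46, adjusted p 0.0029) and Col16a1 (1.92 ± 0.53, adjusted p 0.022) with a larger value in PMs. With a larger value in C2C12 cells it was called for Col24a1 (-1.94 ± 0.47, adjusted p 0.0099), Col25a1 (-5.57 ± 1.8, adjusted p 0.049) and Col13a1 (adjusted p 7.7e-05). The call of Col24a1 was lost without replicate 1 of C2C12 day 0 (adjusted p 0.063). Col16a1 was lost without 5 of the 8 libraries, replicate 1 of PM day 3 (adjusted p 0.097), either library of PM day 0, replicate 1 of C2C12 day 3 or replicate 2 of C2C12 day 0. Col25a1 was lost without 7 of the 8, all but replicate 2 of PM day 3 (adjusted p up to 0.17, without replicate 2 of C2C12 day 0).

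Levels in siControl cells also differed between PMs and C2C12 cells. At day 0, 12 collagen genes were higher and 7 lower in PMs (48.7% of 39, beside 26.8% of all genes). At day 3 there were 15 higher and 6 lower (53.8%, beside 29.8%), and at day 6 there were 22 higher and 7 lower (74.4%, beside 24.9%, of which 15.7% higher and 9.22% lower). The median log2 difference was 0.75, 0.76 and 1.67 at the 3 days, against 0.03, 0.03 and 0.02 for all genes, and 0.71 at day 0 with genes at the floor set to their bound. Col15a1 separated the cell types at every day, at 26.4 to 151 CPM in PMs and at no more than 0.769 CPM in C2C12 cells (7.6 ± 0.53, 7.66 ± 0.48 and 8.42 ± 0.51, adjusted p 7.5e-09, 3.9e-09 and 2.7e-09). Col19a1 was also higher in PMs at all days, by 8.58 ± 0.56 at day 0 and 4.82 ± 0.44 at day 6 (adjusted p 3.5e-09 and 3.4e-07). Col11a2, Col13a1, Col24a1, Col7a1, Col11a1 and, from low counts, Col6a5 were called higher in PMs at all 3 days, and Col8a2, Col17a1 and Col3a1 lower. Col27a1 and, from few C2C12 reads, Col25a1 were also called higher in PMs at day 0, Col2a1 at day 3 and Col23a1 at days 3 and 6. Col6a1 and Col6a2 were called lower in PMs at day 3. The day 0 call of Col11a1 was lost without replicate 1 of PM day 0 (adjusted p 0.23) or either C2C12 library, that of Col7a1 without replicate 2 of PM day 0 (adjusted p 0.13) or replicate 1 of C2C12 day 0, and that of Col3a1 without replicate 2 of C2C12 day 0 (adjusted p 0.2) or either PM library. Col17a1 was lost at day 3 without replicate 1 of C2C12 day 3 (adjusted p 0.12) or either PM library, and at day 6 without replicate 1 of C2C12 day 6 (adjusted p 0.28) or replicate 2 of PM day 6. Further calls lost without at least 1 library were Col14a1, Col9a1 and Col6a5 at day 0, Col12a1, Col25a1 and Col6a5 at day 3, and Col18a1, Col2a1, Col9a3, Col4a2, Col12a1, Col27a1, Col22a1 and Col6a5 at day 6, with the highest adjusted p at 0.56 for Col27a1 without replicate 1 of PM day 6.

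Col1a2 and Col6a3 changed sides with time in this comparison. Col1a2 was lower in PMs at day 0 (-1.96 ± 0.33, adjusted p 0.00017) and higher at day 6 (1.56 ± 0.33, adjusted p 0.0013). Col6a3 was lower in PMs at day 0 (-3.05 ± 0.55, adjusted p 0.0003) and higher at day 6 (1.71 ± 0.53, adjusted p 0.017), the latter call being lost without replicate 1 of day 6 of either cell type (adjusted p up to 0.17, without the C2C12 library). Col1a1 did not differ by the test at day 0 (0.38 ± 0.5, adjusted p 0.58) and was higher in PMs by 3.74 ± 0.55 at day 6 (adjusted p 5.8e-05). Col6a1 and Col6a2 were lower in PMs at day 6 (-3.04 ± 0.64 and -3.3 ± 0.7, adjusted p 0.0013 and 0.0014). Col6a6 was at least 88.6-fold and at least 38.7-fold higher in PMs at days 3 and 6 than the C2C12 floor of 3 counts.

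The mRNA ratio of chains that share a trimer differed between days and cell types by more than the spread of replicates for some pairs. The ratios are descriptions with no test. They are of CPM per kilobase in the same library, with the gene length of the deposited table. The Col1a1 to Col1a2 ratio of siControl PMs was 0.247 and 0.22 at day 0, then 1.02 and 0.72 at day 3, then 1.1 and 0.923 at day 6. In C2C12 cells it was 0.058 and 0.038, then 0.205 and 0.227, then 0.238 and 0.215. In both cell types day 0 lay below the later days, and at each day the C2C12 ratios lay below those of PMs. With the exon union as gene length, every Col1a1 to Col1a2 ratio is 1.87 times as large, and every Col3a1 to Col1a1 ratio 0.718 times.

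The Col6a3 to Col6a1 ratio moved in opposite directions in the cell types. It was 1.11 and 1.25 at day 0 and 4.48 and 2.86 at day 6 in PMs, and 3.82 and 4.29 at day 0 and 0.0741 and 0.197 at day 6 in C2C12 cells. Col6a1 to Col6a2 stayed between 2.36 and 5.33 in all siControl libraries. The Col4a1 to Col4a2 ratio was 1.87 and 1.9 at day 0 and 1.7 and 1.53 at day 6 in PMs, and 1.37 and 1.41 and then 1.13 and 1.27 in C2C12 cells. Its whole range over the 12 siControl libraries was thus less than 2-fold. The ratio of the type III chain Col3a1 to Col1a1 in PMs was 6.62 and 11.4 at day 0, then 0.304 and 0.583 at day 3, then 0.334 and 0.547 at day 6, while in C2C12 cells it was 17 and 32, then 13.2 and 12.9, then 14.6 and 14.2. Col8a1 to Col8a2 was 112 or more in all siControl PM libraries and 3.05 or less in C2C12 cells at days 3 and 6.

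**Figure D3:**
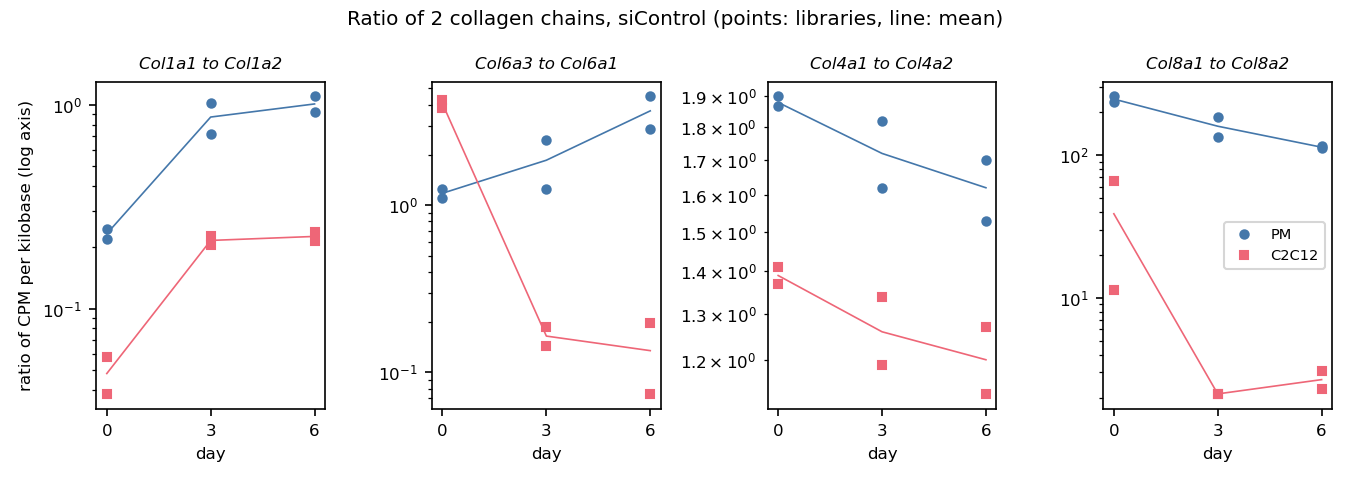
Ratio of CPM per kilobase of 2 chains in siControl PMs (circles) and C2C12 cells (squares) at days 0, 3 and 6, on log axes with a separate scale in each panel; points are libraries and lines join the means. Col6a3 to Col6a1 goes from 1.11 and 1.25 to 4.48 and 2.86 in PMs and from 3.82 and 4.29 to 0.0741 and 0.197 in C2C12 cells.

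The make-up of the collagen mRNA pool also differed between days. Of the summed collagen CPM per kilobase in PM siControl cells, Col1a1 held 2.48% and 1.58% at day 0, against 25.2% and 19.9% at day 6. The basement membrane genes went from 23.5% and 26.6% to 15% and 16.2%, and the multiplexins from 14.6% and 14.3% to 3.02% and 3.47%. In C2C12 siControl cells Col3a1 held 19.6% and 25.3% at day 0 and 40.2% and 34.9% at day 6, while Col1a1 held no more than 2.93% in any siControl library of these cells. In none of these comparisons did the replicates of day 0 and day 6 overlap. Fibrillar genes held between 50.3% and 77.1% in all siControl libraries. With the exon union as gene length, Col1a1 held 2.75% and 1.74% at day 0 and 29.1% and 22.9% at day 6 in PMs, and Col3a1 held 16.8% and 22.1% and then 36% and 30.4% in C2C12 cells. The fibrillar range was then 41.8% to 71.6%, and the days named here still did not overlap.

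Few collagen genes were called with siTead1/4. In PMs 1 of the 39 tested was called at day 0 (2.56%, beside 2.6% of all genes), 5 at day 3 (12.8%, beside 3.3%) and 1 at day 6 (2.56%, beside 0.743%), and each of these edgeR calls was higher with siTead1/4. With DESeq2 there were 2 calls at day 0, 7 at day 3 and 4 at day 6, of which 1 at each day was lower, Col8a1 at day 0 and Col23a1 at days 3 and 6. The median log2 fold change of the collagen genes was 0.21, 0.27 and 0.1 at days 0, 3 and 6, against -0.01, 0.01 and 0 for all genes. At an unadjusted p under 0.05 there were 11, 14 and 10 members, with no share of all genes to set beside these counts.

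Col24a1 (chromosome 3, 144955436 to 145214975, mm9) was the collagen called at each of the 3 days. In siControl PMs it was at 2.54 and 2.65 CPM at day 0, 2.75 and 4.5 CPM at day 3 and 3.85 and 2.61 CPM at day 6. In siTead1/4 PMs it was at 5.83 and 6.1 CPM, 46.1 and 52.4 CPM, and 24.9 and 20.6 CPM. The groups did not overlap at any day. Its log2 fold change was 1.19 ± 0.24 at day 0 (adjusted p 0.014), 3.75 ± 0.24 at day 3 (adjusted p 9.3e-05) and 2.81 ± 0.24 at day 6 (adjusted p 0.002). The calls at days 3 and 6 held without any 1 library (adjusted p up to 0.002 and 0.017), whereas the day 0 call was lost without any 1 of its 4 libraries (adjusted p up to 0.12, without replicate 1 of siControl). Its promoter stretch printed above held no MCAT heptamer, which was found in 7.97% of the windows of all genes. Sequence outside these 250 bases was not searched, and a part of Tead binding in its response was not tested.

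The other calls in PMs were at day 3. Col5a3 was at 129 and 201 CPM with siControl and 296 and 373 CPM with siTead1/4 (log2 fold change 1.01 ± 0.19, adjusted p 0.012). Col6a2 was at 20 and 22 CPM and 42.7 and 51.2 CPM (1.15 ± 0.28, adjusted p 0.036), and Col10a1 at 2.5 and 2.3 CPM and 4.48 and 8.17 CPM (1.39 ± 0.31, adjusted p 0.026). None of these groups overlapped, yet each call depended on single libraries, and just 2 of the 5 calls were kept without replicate 1 of siControl or without replicate 2 of siTead1/4. Col6a2 was lost without any 1 of the 4 (adjusted p up to 0.2, without replicate 1 of siControl), Col10a1 without replicate 2 of siTead1/4 (adjusted p 0.18) or either siControl library, and Col5a3 without replicate 2 of siTead1/4 (adjusted p 0.083) or replicate 1 of siControl. Col9a1, a FACIT chain of cartilage, had 0 and 2 counts with siControl and 61 and 55 counts with siTead1/4, at least 16.7-fold above the floor of 3 counts (adjusted p 0.00099), and held without any 1 library.

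Some collagens passed the adjusted p but not the fold threshold in PMs. At day 0 these were Col12a1 (0.98 ± 0.19, adjusted p 0.015), Col5a3 (0.82 ± 0.19, adjusted p 0.032) and Col13a1 (-0.57 ± 0.14, adjusted p 0.033), and at day 3 Col4a1 (0.48 ± 0.13, adjusted p 0.047) and Col4a2 (0.5 ± 0.11, adjusted p 0.022). Col4a1 was at 624 and 660 CPM with siControl and at 893 and 909 CPM with siTead1/4, and Col4a2 at 374 and 353 CPM and at 518 and 518 CPM. Col6a1, the partner of Col6a2, was at 34.9 and 56 CPM and at 68.3 and 109 CPM (0.95 ± 0.3, adjusted p 0.083), and Col12a1 differed by 0.71 ± 0.19 at day 3 (adjusted p 0.054). Col23a1 was at 19.5 and 44.7 CPM with siControl and 13.5 and 16.3 CPM with siTead1/4 at day 3 (-1.12 ± 0.36, adjusted p 0.094), and at 58.2 and 95.6 CPM and then 24.3 and 31.4 CPM at day 6 (-1.47 ± 0.36, adjusted p 0.09). Its groups did not overlap at either day, and DESeq2 called both. Type I collagen showed overlapping levels, with Col1a1 at 1120 and 1020 CPM with siControl and 965 and 1170 CPM with siTead1/4. Fibroblast markers summed to 36.3 and 35.2 CPM in siTead1/4 PMs at day 3, and at day 6 to 88.4 and 87 CPM against 178 and 117 CPM in siControl, where Dcn and Lum were called lower.

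In C2C12 cells siTead1/4 gave 1 collagen call, at day 3 (2.78% of 36, beside 1.27% of all genes). Col19a1 was at 0.472 and 0.405 CPM with siControl and 2.41 and 2.71 CPM with siTead1/4 (log2 fold change 2.51 ± 0.39, adjusted p 0.019), a call lost without replicate 2 of siControl (adjusted p 0.21), replicate 1 of siControl or replicate 2 of siTead1/4. At day 6 its levels were 0.385 and 0.735 CPM and 2.48 and 2.86 CPM (2.29 ± 0.39, adjusted p 0.085). No collagen was called by edgeR at day 0 (beside 0.438% of all genes, with 0.301% of all genes lower) or day 6 (beside 0.0457%), while DESeq2 called 1 and 2. At an unadjusted p under 0.05 there were 4 and 7 members at these days, again with no share of all genes beside them. The median was 0.38, 0.1 and 0.26 at days 0, 3 and 6, against 0.02, 0.01 and 0.01 for all genes. The replicates of C2C12 siTead1/4 cells at day 3 were far apart for many collagens. Col12a1 was at 1270 and 234 CPM, Col6a1 at 582 and 100 CPM, Col1a1 at 394 and 89.2 CPM and Col8a2 at 169 and 25.1 CPM. For all 4 genes both siControl libraries of day 3 lay between these values. The sum of 8 myogenic markers was 2970 and 4630 CPM in these libraries, against 6430 and 6190 CPM in siControl, and its part in the spread was not tested. The fitted differences of Col12a1 (1.2 ± 0.67, adjusted p 0.48) and Col6a1 (0.08 ± 0.71, adjusted p 0.98) carry this spread. The biological coefficient of variation was 0.242 in the C2C12 fit and 0.15 in the PM fit.

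The fitted change with siTead1/4 differed between the cell types for Col24a1 at day 3. Silencing at day 3 was -1.09 for Tead1 and -1.76 for Tead4 in C2C12 cells, against -1.68 and -2.58 in PMs. These differences in silencing passed no test (edgeR adjusted p 0.83 and 0.4), and their part in the result for Col24a1 was not tested. Col24a1 levels in C2C12 cells were 1.16 and 1.48 CPM with siControl and 1.32 and 1.6 CPM with siTead1/4 (0.12 ± 0.39, adjusted p 0.94). The difference of effects was 3.61 ± 0.42 (adjusted p 0.00053). This was the only collagen called among 39 (2.56%, beside 1.25% of all genes), and the call held without any 1 of the 8 libraries (adjusted p up to 0.0061). Without replicate 1 of C2C12 siTead1/4 there were 4 calls, with Col6a1, Col6a2 and Col10a1 in addition, and without replicate 2 of it there were 2, with Col23a1 in addition. At day 6 Col24a1 was at 0.597 and 1 CPM and 2.28 and 2.22 CPM in C2C12 cells (1.51 ± 0.4, adjusted p 0.3), and the difference of 1.29 ± 0.43 did not pass the test (adjusted p 0.53). At day 0 it was 0.36 ± 0.52 (adjusted p 1). No collagen was called for this difference by edgeR at day 0 (beside 0.00591% of all genes) or day 6 (beside 0.0354%), and DESeq2 called 0 at both. At an unadjusted p under 0.05 there were 2 and 3 members at these days, with no share of all genes beside them.

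**Figure D4:**
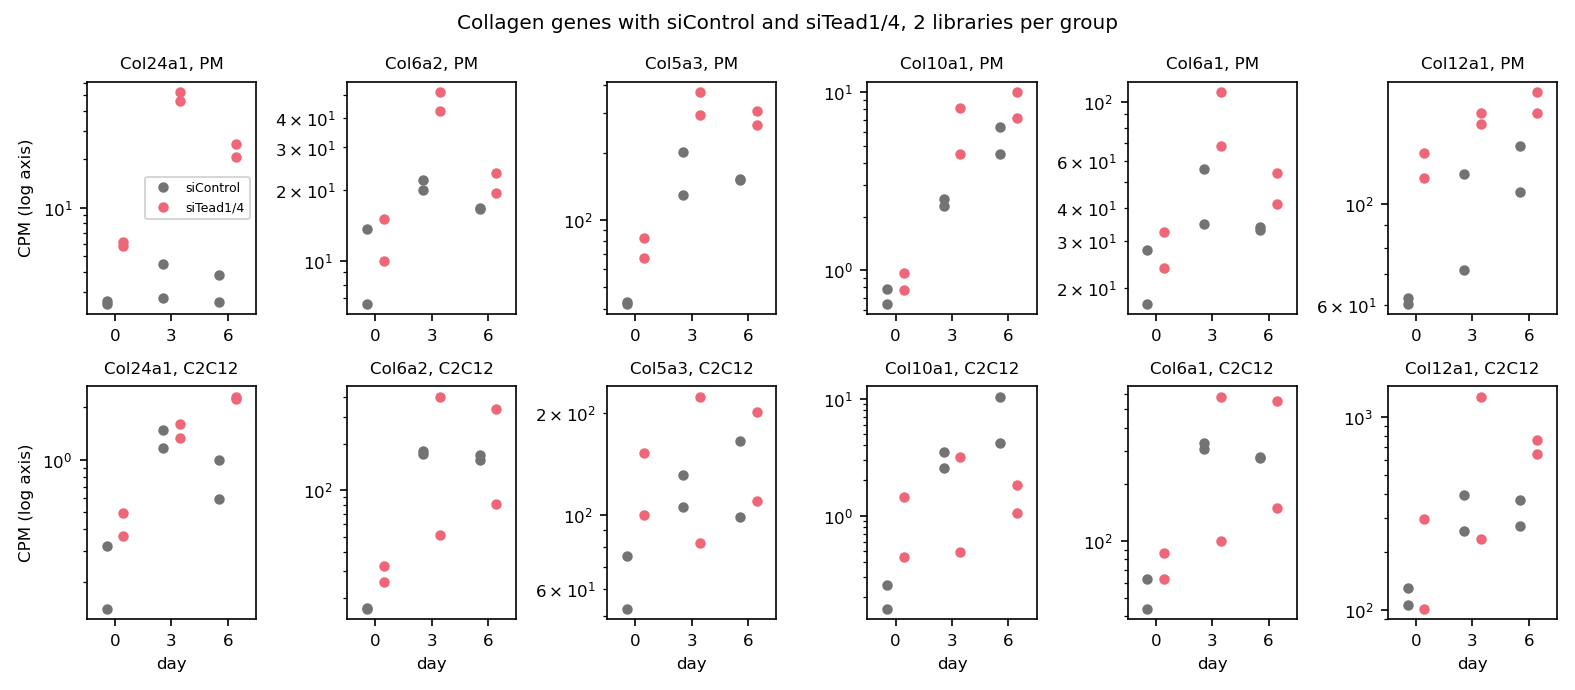
Levels of 6 collagen genes in PMs (top) and C2C12 cells (bottom) at days 0, 3 and 6 with siControl (grey) and siTead1/4 (red), as CPM on log axes with a separate scale in each panel and 1 point per library. Col24a1 separates the siRNAs at all 3 days in PMs, reaching 46.1 and 52.4 CPM at day 3, while the 2 C2C12 siTead1/4 libraries of day 3 lie far apart for Col6a1 (582 and 100 CPM) and Col12a1 (1270 and 234 CPM).

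Genes for enzymes, folding factors and other proteins of collagen synthesis and processing were examined as a list of 30 genes, 28 of which were tested. In PMs 9 rose and 2 fell between day 0 and day 6, which is 39.3% beside 35.5% of all genes. In C2C12 cells 3 rose and 5 fell, which is 28.6% beside 31.1%. Lox, the cross-linking lysyl oxidase, was at 18.1 and 21 CPM in PMs at day 0, 326 and 295 CPM at day 3 and 1170 and 1010 CPM at day 6 (log2 fold change 5.73 ± 0.24, adjusted p 7.6e-08). In C2C12 cells it was at 484 and 505 CPM and then 683 and 875 CPM, without a call. Loxl2 rose in PMs from 8.77 and 8.73 CPM to 290 and 189 CPM (4.71 ± 0.21, adjusted p 8.9e-08) and fell in C2C12 cells from 80.9 and 85.8 CPM to 21.6 and 18.1 CPM (-2.11 ± 0.46, adjusted p 0.0045). The difference between the cell types was called for both, at 5.14 ± 0.39 for Lox (adjusted p 2.1e-07) and 6.84 ± 0.56 for Loxl2 (adjusted p 3.6e-07). The prolyl hydroxylase subunit P4ha2 rose in PMs (2.1 ± 0.2, adjusted p 7.4e-06), and Loxl1 rose in both cell types (2.61 ± 0.24 in PMs, adjusted p 5.1e-06, and 2.03 ± 0.42 in C2C12 cells, adjusted p 0.0036). Pcolce2, an enhancer of procollagen cleavage, fell in both (-4.3 ± 0.21, adjusted p 1.2e-07, and -2.36 ± 0.29, adjusted p 0.00017). Adamts14, a procollagen N-proteinase, rose in C2C12 cells (1.4 ± 0.24, adjusted p 0.0011). The collagen folding factor Ppib fell in PMs (-1.3 ± 0.14, adjusted p 1.6e-05), and Fkbp10 fell in C2C12 cells (-1.17 ± 0.28, adjusted p 0.0066). With siTead1/4, 1 of the 28 was called in PMs at day 3, which is 3.57% beside 3.3% of all genes. This was Loxl3, which was lower (-1.07 ± 0.26, adjusted p 0.033). At any other day of either cell type 0 were called, beside the shares of all genes given above for siTead1/4.

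Collagen receptors formed a list of 10 genes, of which 8 were tested in PMs and 7 in C2C12 cells. In PMs 5 rose and 1 fell between day 0 and day 6, which is 75% beside 35.5% of all genes, and in C2C12 cells 2 rose and 1 fell, or 42.9% beside 31.1%. Itga11, an integrin chain that binds fibrillar collagen, rose in both, from 0.254 and 0.254 CPM to 16.5 and 20.2 CPM in PMs (6.09 ± 0.22, adjusted p 4.5e-08) and from 0.479 and 0.249 CPM to 9.46 and 17.3 CPM in C2C12 cells (5.2 ± 0.81, adjusted p 0.00069). Mrc2, a receptor that takes up collagen, rose in PMs (2.83 ± 0.27, adjusted p 7.7e-06), and Ddr1, a collagen-binding kinase, fell there (-1.53 ± 0.22, adjusted p 0.00015). Itga10 rose in both cell types (1.39 ± 0.28, adjusted p 0.0014, and 4.12 ± 0.62, adjusted p 0.00052). With siTead1/4 in PMs, 1 of the 8 was called at day 0 and at day 3, Itga11, which is 12.5% beside 2.6% and 3.3% of all genes. Itga11 was higher at day 0 (1.17 ± 0.25, adjusted p 0.021) and lower at day 3 (-1.6 ± 0.17, adjusted p 0.00083). No receptor was called in PMs at day 6 or in C2C12 cells.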

How the data were processed

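RNA-seq was done in 24 libraries on poly-A RNA with an unstranded kit. Per the submitters' processing notes the authors used CASAVA 1.8.2, TopHat2 2.0.10, Bowtie2 2.1.0, HTSeq 0.6.1 and DESeq2 1.8.1 with the mm9 build, and deposited raw read counts per gene with a gene length. The deposited normalised columns were not used, nor were 36 columns of 12 libraries that the labels do not list.

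The deposited counts were tested with edgeR 4.0.16 in R 4.3.3 (quasi-likelihood F-test, TMM scaling, filterByExpr), after a check of the scripts on simulated data. Each cell type was fitted with its 6 groups (12 libraries), while comparisons between cell types and of their changes used all 24 libraries. A call required a Benjamini-Hochberg adjusted p under 0.05 over all tested genes and a log2 fold change beyond 1. Levels are CPM with TMM library sizes, divided by the deposited gene length where given per kilobase. The deposited length equalled the union of GENCODE vM1 exons for 22 of 43 collagen genes. Genes with 3 counts or fewer in both libraries of a group have bounds in place of fold changes.

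The text names the collagens called in each comparison (the 10 largest where more), the 10 most abundant, their partner chains, collagens linked to muscle, Tead1 and Tead4. It also names some called members of lists of synthesis and processing genes, receptors and markers of fibroblasts, muscle, endothelium, Schwann cells, macrophages, chondrocytes and tenocytes. The members and lists were chosen with earlier results of these data known. Alternatives were relative log expression size factors, no count filter, DESeq2 1.42.0, a replicate block, other sets of libraries in the fit, leaving out each library and, chosen after seeing the data, the exon union as gene length. With 2 replicates per group, the calls rest on a spread estimated from few cultures. Library totals were 25453830 counts or more, and the effect of depth on the calls was not tested.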

Additional observations from a re-analysis of the deposited data

Results flagged for a closer look

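The change between days in siControl cells differed between PMs and C2C12 cells by the interaction test for 7 collagen genes at day 3 and 10 at day 6. The difference of log2 fold changes, PM minus C2C12, from day 0 to day 3 was 3.61 for Col6a3, 2.34 for Col7a1, 2.25 for Col1a2, 1.92 for Col16a1, -1.94 for Col24a1 and -5.57 for Col25a1. For Col13a1, whose C2C12 day 0 libraries held 0 and 1 counts, the edgeR adjusted p was 7.7e-05 and no fold is given. From day 0 to day 6 the difference was 4.76 for Col6a3, 3.56 for Col16a1, 3.51 for Col1a2, 3.36 for Col1a1, 1.95 for Col7a1, 1.39 for Col5a1, -2.31 for Col22a1, -3.76 for Col19a1 and -9.62 for Col25a1, and the adjusted p for Col13a1 was 1.5e-05. The siTead1/4 effect on Col24a1 at day 3 differed between PMs and C2C12 cells by 3.61. Col25a1 had 2 and 4 counts in C2C12 cells at day 0, so the size of its difference rests on few reads.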

How the results depend on the processing

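Of 173 collagen calls, all kept their direction under every alternative, and all passed with relative log expression size factors. Of these, 2 no longer passed without a count filter and 3 with DESeq2. Of the 86 calls within a cell type, 10 no longer passed with all 24 libraries in one fit and 10 when just 4 libraries were fitted. Leaving out 1 library at a time, 159 of 764 results no longer passed. The cause was not tested, though leaving out a library leaves fewer samples.

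Counts of called collagens moved as follows. Here, above and in the next paragraphs, counts under an alternative come without the share of all genes called under it. They therefore do not tell a change in the collagens from a change in all genes. For siTead1/4 in C2C12 cells, the count of 0 at day 0 became 3 with no filter and 1 with DESeq2. The count of 1 at day 3 became 4 with no filter, 2 with DESeq2, 2 with all 24 libraries and 0 with 4 libraries. The count of 0 at day 6 became 9 with no filter, 2 with DESeq2 and 3 with all 24 libraries. For siTead1/4 in PMs, the count of 1 at day 0 became 2 with size factors, no filter, DESeq2 or 4 libraries. The second call was the lower Col8a1 with size factors and DESeq2. The count of 5 at day 3 became 2 with all 24 libraries, 3 with 4 libraries and 7 with no filter or DESeq2 (Col14a1 higher and Col23a1 lower in addition). The count of 1 at day 6 became 6 with no filter (4 higher, 2 lower), 4 with DESeq2 (3 higher, 1 lower, Col23a1) and 0 with 4 libraries. From day 3 to day 6, the count of 0 in C2C12 cells became 3 with no filter, and the count of 5 in PMs became 11 with no filter, 9 with DESeq2, 1 with all 24 libraries and 0 with 4 libraries. For the difference of the siTead1/4 effect, the count of 1 at day 3 became 5 with no filter and 2 with DESeq2, and the count of 0 at day 6 became 1 with no filter. For the difference of the change from day 0, the count of 7 at day 3 became 20 with no filter and 13 with DESeq2, and the count of 10 at day 6 became 20 with no filter.

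Without 1 library at a time, the counts for siTead1/4 at days 0, 3 and 6 ranged from 0 to 0, 0 to 1 and 0 to 0 in C2C12 cells and from 0 to 0, 2 to 5 and 1 to 1 in PMs. For day 3 against 0, day 6 against 0 and day 6 against 3 they ranged from 9 to 12, 12 to 14 and 0 to 0 in C2C12 cells and from 15 to 20, 20 to 23 and 1 to 5 in PMs. Between the cell types they ranged from 15 to 18, 19 to 21 and 20 to 26 at days 0, 3 and 6. The difference of siTead1/4 effects gave 0 to 0, 1 to 4 and 0 to 0, and the difference of changes from day 0 gave 5 to 8 at day 3 and 8 to 13 at day 6.

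The replicate numbers are shared by the groups, but nothing says that they pair the cultures. Deviations of same-numbered libraries correlated at -0.2 to 0.52 in C2C12 cells (6 of 15 pairs of groups over 0.1) and at 0.07 to 0.54 in PMs (14 of 15). With the replicate block, 4 of the 173 calls no longer passed. The block moved the count for siTead1/4 in PMs at day 3 from 5 to 7 (Col6a6 higher and Col23a1 lower in addition) and at day 6 from 1 to 5 (Col6a6 and Col19a1 higher, Col11a1 and Col23a1 lower), the count from day 3 to day 6 in PMs from 5 to 9, the difference of the siTead1/4 effect at day 3 from 1 to 3, and the difference of the change to day 3 from 7 to 11. Depth limits the collagens with few reads, for which only bounds are given.

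Among values that passed no test, the sign turned for some. In C2C12 cells with siTead1/4 at day 3, Col6a1 (0.08) became -0.12 with the replicate block, and without 1 library it ranged from -1.7 to 0.85, Col12a1 from -0.49 to 1.96 and Col24a1 from -0.05 to 0.31. From day 0 to day 6 of C2C12 cells, Col4a1 (-0.04) became 0.01 with size factors and with DESeq2, and without 1 library it ranged from -0.72 to 0.43 and Col4a2 from -0.42 to 0.56. From day 0 to day 6 of PMs, Col24a1 ranged from -0.05 to 0.5. Between PMs and C2C12 cells at day 0, Col1a1 ranged from -0.01 to 0.65, and the difference of siTead1/4 effects on Col24a1 at day 0 from -0.39 to 0.76.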
